A study of Mus musculus with 18 samples.

Results

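Respiratory chain genes are split between the genomes of the cell: a few subunits are encoded by mitochondrial DNA and the rest by chromosomes of the nucleus. The genes described here are the protein-coding genes of the deposited count table that lie on the mitochondrial chromosome, or whose symbol begins with Nduf, Uqcr, Atp5, or Cox followed by 4, 5, 6, 7 or 8. This rule found 106 of the 56748 genes listed, of which 13 are mitochondrial and 93 nuclear. By symbol the nuclear genes comprised 7 core subunits, 31 accessory subunits or paralogs and 8 assembly factors (the Ndufaf genes) of complex I, 8 subunits of complex III, 13 genes of complex IV (12 subunits and Cox5b-ps, whose symbol marks a pseudogene of Cox5b) with 8 tissue isoforms, and 18 genes of complex V.

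As background, complex I takes electrons from NADH, complex III passes them from ubiquinol to cytochrome c, and complex IV delivers them to oxygen; the protons pumped on the way drive the ATP synthase, complex V. Mitochondrial DNA encodes hydrophobic core subunits of these complexes and is transcribed by its own polymerase into long precursors that are cut into separate mRNAs, whereas the nuclear subunits are transcribed gene by gene and imported as proteins. Activated macrophages are known for a shift of energy metabolism from respiration towards glycolysis.

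The study measured RNA in RAW264.7 cells, a mouse macrophage line, by poly(A)-selected, strand-specific, paired-end sequencing. The 6 groups had 3 libraries each: untreated control cells; cells given 5 µM TBHQ (tert-butylhydroquinone, a phenolic food antioxidant known to activate the transcription factor Nrf2) and harvested after 4 h; cells given 0.1 µg/mL LPS (lipopolysaccharide of bacteria) for 12 h; cells given 20 µg/mL PIC (poly I:C, a synthetic double-stranded RNA) for 12 h; and cells given each stimulus for 12 h after 4 h of TBHQ, called LPS+TBHQ and PIC+TBHQ. The comparisons ask how each stimulus alters macrophage transcripts and how TBHQ given beforehand changes that. The TBHQ cells were harvested 12 h earlier in the scheme than the cells given TBHQ and then a stimulus. The paper's methods do not say when LPS or PIC alone was added in relation to these. TBHQ was dissolved in DMSO, and no library of solvent-treated cells was analysed here. A figure caption of the paper lists the control, given medium alone, with the 12 h groups, and by it TBHQ against control also spans a difference in time of harvest. The paper's methods give no harvest time for the control. The part of harvest time in the comparisons with control was not tested.

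Total counts per library ran from 14423390 to 18851626, so that 3 counts, taken as the floor of detection, correspond to 0.159 to 0.208 CPM (counts scaled to the library total). Values below are CPM scaled by TMM factors of edgeR unless FPKM, the authors' length-scaled unit, is named; intervals and floors of this kind cover counting error only. A gene is said to have risen or fallen, or is called, when its false discovery rate (FDR) in edgeR's quasi-likelihood test over all genes tested was under 0.05. The p-values measure the spread among these libraries, which the study describes as biological replicates, and the 5 comparisons against control share the same 3 control libraries. In bulk RNA, fewer cells expressing a gene and less RNA per cell cannot be told apart.

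The libraries carried the marker genes of macrophages. All 8 macrophage markers passed the filter on low counts, with Lyz2 (lysozyme) the most abundant at a control mean of 4531 FPKM, and their summed counts ran from 125919 to 176235 per library. The 4 T cell markers summed to 0 to 4 counts per library, the 3 fibroblast markers to 0 to 8 and the 4 epithelial markers to 0 to 1; Cd3e, Cd8a, Col1a2, Krt8, Krt18 and Cdh1 were at 0 in every library.

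Most mitochondrial genes were more abundant than the nuclear genes. Of the 13, 12 passed the filter, with mean levels from 18.9 to 5897 FPKM over the 18 libraries and a median of 723 FPKM, whereas the 85 nuclear genes that passed ran from 1.08 to 357 FPKM with a median of 40.3 FPKM. mt-Co1, the catalytic subunit of complex IV, stood highest at 5904 FPKM in control cells, followed by mt-Nd1 (complex I) at 2904 FPKM and mt-Cytb (cytochrome b of complex III) at 2255 FPKM. Among the nuclear genes in control cells, Cox6a1 reached 381 FPKM, and Atp5b, the catalytic beta subunit of ATP synthase, 357 FPKM. The nuclear genes lie on 19 chromosomes with at most 9 on any chromosome, and their gene lengths in the authors' table had a median of 1495 bases against 3899 over all 13691 genes tested.

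The nuclear genes that did not pass the filter were Ndufb11b, Cox4i2, Cox6b2, Cox7b2, Cox8b, Cox8c, Ndufa4l2 and an additional gene listed under the symbol Atp5o, none with more than 6 counts in a library. 6 of these 8 encode the alternative forms of complex IV subunits, or the paralog Ndufa4l2, that other tissues use. mt-Atp8, a small subunit of complex V whose reading frame overlaps that of mt-Atp6, had 2, 5 and 10 counts in the control libraries and 0 to 10 counts over all 18. Those counts lay around the floor in every group, so no fold change is given for it.

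A further property split the mitochondrial genes: 7 of the 13 share over 50% of their 50-base words with another annotated gene, and 5 share over 90% (mt-Co2, mt-Co3, mt-Atp6, mt-Nd4l and mt-Nd3). Shorter matches of mt-Co1 and mt-Co2 lie in Gm13340 and Gm13341 on chromosome 2, with means of 16.1 and 7.72 counts per library, and the longest lie on the reverse strand of chromosome 1, where the authors' table lists 7 genes annotated as unprocessed pseudogenes within 4663 bases, from 24650616 to 24655278. Read along that strand from mt-Co1, the copies keep the order of the mitochondrial chromosome: Gm29216 (matching mt-Co1), Gm28661 (mt-Co2), Gm10925 (mt-Atp6), Gm28437 (mt-Co3), Gm28438 (mt-Nd3), Gm10222 (mt-Nd4l) and Gm28439 (mt-Nd4). Between Gm28661 and Gm10925, where mt-Atp8 lies in the mitochondrial order, 233 bases held no listed gene. Over their full length Gm28661 (681 bases), Gm10925 (678 bases), Gm28437 (783 bases), Gm10222 (294 bases) and Gm28439 (876 bases) matched the mitochondrial gene without a difference, Gm28438 (345 bases) with 1 and Gm29216 (492 bases) with 6.

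The first 90 bases of mt-Co2 and mt-Nd3 with those of their copies show how little separates a read of the mitochondrial mRNA from one of the copy. The transcripts are those of GENCODE vM21 on GRCm38, written in the sense of the mRNA, and capitals mark the base that differs.
mt-Co2: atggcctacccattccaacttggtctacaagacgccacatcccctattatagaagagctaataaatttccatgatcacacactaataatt
Gm28661: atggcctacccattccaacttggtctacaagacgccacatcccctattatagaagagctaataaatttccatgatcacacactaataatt
mt-Nd3: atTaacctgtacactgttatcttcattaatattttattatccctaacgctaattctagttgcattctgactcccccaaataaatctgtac
Gm28438: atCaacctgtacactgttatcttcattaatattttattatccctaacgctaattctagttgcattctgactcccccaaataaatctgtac
Copies of the 5 genes that share over 90% also carried counts: Gm10925 averaged 1067 counts per library against 964 for mt-Atp6, Gm28661 823 against 1366 for mt-Co2, Gm28437 795 against 863 for mt-Co3, Gm28438 341 against 109 for mt-Nd3, and Gm10222 123 against 89.4 for mt-Nd4l. mt-Co2, mt-Co3, mt-Atp6, mt-Nd4l and mt-Nd3 had control levels of 231, 79.4, 91.4, 15.04 and 31.9 FPKM, whereas mt-Nd1, mt-Nd2, mt-Nd4, mt-Nd5, mt-Nd6, mt-Cytb and mt-Co1 ran from 727 to 5904 FPKM. How reads that match several places were assigned is not stated in the sources used here, and its part in these levels was not tested.

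Of the 93 nuclear genes, 23 share over 10% of their words with another gene and 3 share over 50%. Replicates of the tested genes were close for most: the median over genes of the within-group SD of log2 CPM was 0.0678 for the mitochondrial genes, 0.0694 for the nuclear genes and 0.0938 for all genes tested. Ndufa12, an accessory subunit of complex I, varied most, with an SD of 0.667 and control values of 34.4, 43.6 and 8.18 CPM. Its processed pseudogene Gm15920, which shares 17.7% of its words, averaged 749 counts per library. mt-Atp6, mt-Co2 and mt-Nd4l followed among the well-counted genes with SDs of 0.289, 0.286 and 0.280; in mt-Co2 control replicate 1 stood apart, with 4316, 1716 and 1475 counts in the control libraries.

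Summed over all 13 genes, mitochondrial transcripts made up 1.95, 2.07 and 2.09% of the counts of the control libraries. The shares were 1.85, 1.82 and 1.84% with TBHQ, 1.61, 1.79 and 1.60% with LPS and 1.79, 1.70 and 1.84% with PIC. They were 1.71, 1.65 and 1.69% under LPS+TBHQ and 1.64, 1.67 and 1.67% under PIC+TBHQ. Control libraries had the highest shares of all, LPS replicate 2 lay above the other LPS libraries, and the shares of PIC+TBHQ lay below those of PIC without overlap. These are shares of raw totals, without the TMM factors used for CPM. The factors were 1.06, 1.06 and 1.07 in control and 0.913, 0.911 and 0.915 with PIC. The order of the groups can differ on the TMM scale, for which shares are not given.

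The 93 nuclear genes summed to 1.07, 1.09 and 1.05% of counts in control cells, 0.997, 1.02 and 1.01% with TBHQ, 0.887, 0.890 and 0.920% with LPS and 0.842, 0.862 and 0.826% with PIC. In these shares of raw totals, without TMM factors, the control libraries again lay highest, the TBHQ libraries next, and all stimulated libraries below both. The log2 ratio of mitochondrial to nuclear sums was 0.86, 0.93 and 0.99 in control, 1.09, 0.98 and 1.15 with PIC and 0.90, 0.94 and 0.92 under PIC+TBHQ. The ratio under PIC+TBHQ lay below that with PIC in every library, a difference of -0.15 (SE 0.051, n = 3 per group, no test). For the other pairs the libraries overlapped: the difference from control was -0.060 with TBHQ, -0.035 with LPS and 0.15 with PIC (SE 0.039, 0.071 and 0.061), and LPS+TBHQ differed from LPS by 0.029 (SE 0.067) and PIC from LPS by 0.19 (SE 0.079), the largest difference of the pairs compared. mt-Co1 held the most counts of the 13 mitochondrial genes, and without it the difference of PIC from control was 0.0083 in place of 0.15. Without mt-Co1 the difference from control was -0.19 with LPS, -0.16 for LPS+TBHQ and -0.15 for PIC+TBHQ, and the libraries of these groups then no longer overlapped the controls.

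**Figure D1:**
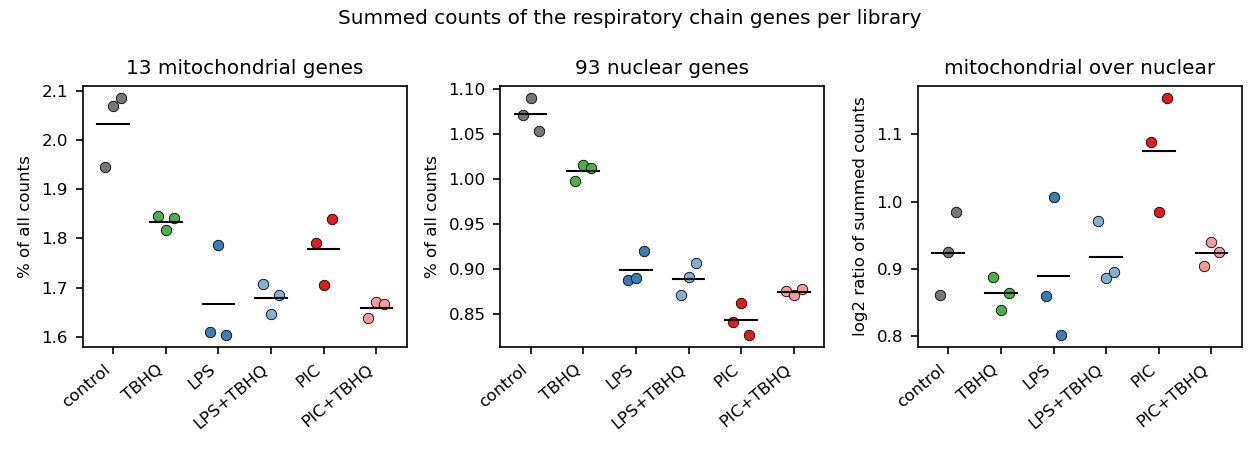
Share of all counts (%) held by the 13 mitochondrial genes (left) and the 93 nuclear genes (middle), and the log2 ratio of the sums (right), with a point per library and a line at the mean of the 3 libraries of each group. The control libraries lie highest in both shares, which are of raw totals without TMM factors. The ratio of PIC+TBHQ (mean 0.92) lies below that of PIC (mean 1.08) without overlap.

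Each treatment lowered many respiratory chain transcripts, by small amounts. TBHQ alone raised 1 of 12 mitochondrial and 3 of 85 nuclear genes, against 14.2% of all genes tested, and lowered 8 and 43, against 14.8%. LPS raised 0 mitochondrial and 2 nuclear genes against 24.0%, and lowered 8 and 55 against 24.1%. PIC raised 1 and 3 against 28.6%, and lowered 5 and 52 against 30.1%. LPS+TBHQ raised 0 and 0 relative to control against 21.2%, and lowered 9 and 66 against 22.5%. PIC+TBHQ raised 0 and 1 against 26.4%, and lowered 8 and 58 against 26.0%. The median log2 fold changes from control in this order were -0.13, -0.20, -0.068, -0.32 and -0.26 for the mitochondrial genes and -0.19, -0.19, -0.19, -0.27 and -0.21 for the nuclear genes, beside -0.00010, -0.0040, -0.015, -0.0075 and -0.0012 for all genes. For the 7 tested mitochondrial genes that share at most 90% of their sequence, the medians were -0.11, -0.22, 0.0395, -0.26 and -0.13. Their median with PIC thus lay above 0.

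In the direct comparisons of stimulated groups, PIC against LPS shares its PIC libraries with PIC+TBHQ against PIC and its LPS libraries with LPS+TBHQ against LPS. LPS+TBHQ against LPS gave 0 mitochondrial and 8 nuclear genes higher (11.7% of all genes) and 1 and 21 lower (12.2%), with medians of -0.029, -0.064 and, over all genes, 0.0023. PIC+TBHQ against PIC gave 0 and 8 higher (15.8%) and 8 and 13 lower (15.5%), with medians of -0.16, -0.010 and 0.0089. PIC against LPS gave 7 and 9 higher (14.9%) and 0 and 3 lower (12.8%), with medians of 0.22, 0.022 and -0.0087. The effect of TBHQ with PIC minus its effect with LPS was higher for 0 and 0 genes (0.825%) and lower for 2 and 0 (1.01%), with medians of -0.13, 0.034 and 0.0091. For the mitochondrial genes each of these 0s, in edgeR, was also 0 at an unadjusted p under 0.05 and 0 with DESeq2, whether adjusted or not. For the nuclear genes, the 0 raised by LPS+TBHQ in edgeR was 1 at an unadjusted p under 0.05 and 0 with DESeq2, and in the difference of the TBHQ effects 12 were higher and 2 lower at that unadjusted p, with 0 called by DESeq2 in either direction. The share of all genes at that unadjusted p is not given, so these counts are not set against it.

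The balance of higher and lower nuclear genes turned with the scaling in PIC against LPS and in PIC+TBHQ against PIC. In the 5 comparisons with control most called nuclear genes were lower with TMM and with total library size. Total library size also moved the median of all genes below its TMM value in each of those comparisons. TMM places the median of all genes near 0, whereas scaling by total library size moved that median to -0.23 in PIC against control, -0.15 in PIC+TBHQ against control, -0.14 in PIC against LPS and -0.092 in LPS against control. With it, 79 nuclear genes were lower and 0 higher in PIC against control. Nuclear genes in PIC against LPS changed from 9 higher and 3 lower to 1 higher and 31 lower. Those in PIC+TBHQ against PIC changed from 8 higher and 13 lower to 20 higher and 6 lower. The share of all genes called with this scaling is not given, so these counts are not set against it. In these comparisons the nuclear medians became -0.41, -0.11 and 0.059, beside -0.23, -0.14 and 0.078 for all genes. The median of the 12 tested mitochondrial genes kept its sign in all of these. It was -0.29 in PIC against control, 0.089 in PIC against LPS and -0.093 in PIC+TBHQ against PIC. Leaving out LPS+TBHQ replicate 2 lowered the nuclear count of LPS+TBHQ against LPS from 29 to 19, and the mitochondrial count there ran from 0 to 2 as single libraries were left out.

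**Figure D2:**
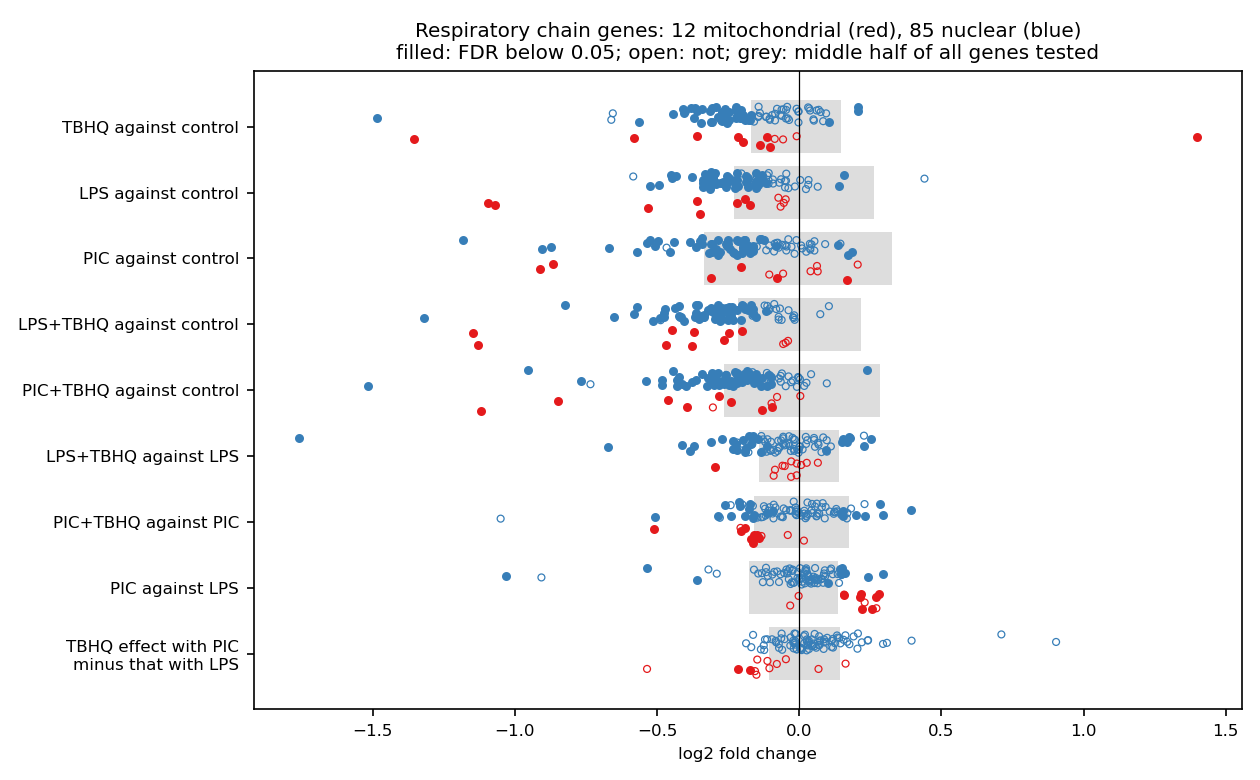
The log2 fold change (TMM scaling) of each tested gene in 9 comparisons, red for 12 mitochondrial and blue for 85 nuclear genes, filled where FDR was under 0.05, over a grey band for the middle 50% of all genes tested. Most blue points lie below 0 in the upper 5 comparisons, and most red points lie above 0 in PIC against LPS (7 called), where scaling by total library size turns the nuclear median to -0.11.

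Among the mitochondrial subunits of complex I that share at most 90% of their sequence, mt-Nd1 had the lowest log2 fold change with LPS. It measured 2652, 2860.5 and 2789 CPM in control, 2426, 2337 and 2396 with TBHQ, 1802, 2083 and 1853 with LPS and 2289, 2095 and 2306 with PIC. It measured 2024, 1953 and 2027 CPM under LPS+TBHQ and 2000.2, 2027 and 2005 under PIC+TBHQ. Every treated library lay below every control library, and the LPS libraries lay below the PIC libraries. mt-Nd1 fell with LPS (log2 fold change -0.53, SE 0.071, FDR = 3.89e-14), with PIC (log2 fold change -0.31, SE 0.055, FDR = 1.11e-08) and with TBHQ (log2 fold change -0.21, SE 0.036, FDR = 4.36e-05). It was higher with PIC than with LPS (log2 fold change 0.22, SE 0.078, FDR = 2.71e-05) and lower under PIC+TBHQ than with PIC (log2 fold change -0.15, SE 0.045, FDR = 0.00282), and LPS+TBHQ differed from LPS by 0.065 without a call. mt-Nd1 lost its call in PIC against LPS with scaling by total library size (FDR = 0.0615). mt-Nd1 lost its call in PIC+TBHQ against PIC with scaling by total library size (FDR = 0.114).

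mt-Nd2, which lies next in the mitochondrial order, measured 1274, 1394 and 1363 CPM in control, 1003, 1129.8 and 1007 with LPS, 1185, 1152 and 1161 with PIC and 1014, 1035 and 1016 under PIC+TBHQ. As with mt-Nd1, all treated libraries lay below the controls; the log2 fold changes were -0.36 with LPS, -0.20 with PIC, 0.16 for PIC against LPS and -0.19 for PIC+TBHQ against PIC, all called. mt-Nd5 measured 1526, 1629 and 1696 CPM in control, 1368, 1520.1 and 1360.2 with LPS, 1672, 1655 and 1747 with PIC and 1461, 1514 and 1566 under PIC+TBHQ. Its PIC libraries overlapped the controls (log2 fold change 0.065, not called), whereas it fell with LPS (-0.19) and stood 0.26 higher with PIC than with LPS. mt-Nd6, the subunit encoded on the other strand of the mitochondrial chromosome, measured 345, 389 and 393 CPM in control, 294, 368 and 307 with LPS and 394, 375 and 407 with PIC. The strand setting of the counting is not given, and its part in the counts of mt-Nd6 was not tested. LPS replicate 2 lay among the controls and the other LPS libraries below them; mt-Nd6 fell with LPS (log2 fold change -0.22, SE 0.12, FDR = 0.00117) and was higher with PIC than with LPS (log2 fold change 0.28, SE 0.11, FDR = 1.43e-04). mt-Nd2 lost its call in PIC against LPS with scaling by total library size (FDR = 0.617).

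mt-Cytb, the mitochondrial subunit of complex III, measured 2487, 2607 and 2611 CPM in control, 2377, 2421 and 2368 with TBHQ, 1957, 2126 and 1973 with LPS and 2480.3, 2341 and 2477 with PIC. It measured 1968, 1951 and 2017 CPM under LPS+TBHQ and 2106, 2109 and 2122 under PIC+TBHQ. The LPS, LPS+TBHQ and PIC+TBHQ libraries formed a low group, and the PIC libraries lay between it and the controls. It fell with LPS (log2 fold change -0.35, SE 0.044, FDR = 6.91e-12), was higher with PIC than with LPS (log2 fold change 0.27, SE 0.047, FDR = 1.23e-08), and was lower under PIC+TBHQ than with PIC (log2 fold change -0.20, SE 0.028, FDR = 2.14e-06). PIC against control gave -0.078 (FDR = 0.0281). mt-Cytb lost its call in PIC against control with DESeq2 (FDR = 0.0797) and with a fit of the compared conditions alone (FDR = 0.0909) and with RLE size factors (FDR = 0.0931) and with a mean of at least 50 counts (FDR = 0.133) and with limma (FDR = 0.148), and without control replicate 2 or 3, LPS replicate 3, PIC replicate 1 or 2 or 3 (FDR 0.0509 to 0.361). The value for mt-Cytb in PIC against control was -0.037 without PIC replicate 2.

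In complex IV, mt-Co1 measured 8685, 9247 and 9318 CPM in control, 8220.02, 8213 and 8316 with TBHQ, 8543, 9372 and 8444 with LPS and 10182, 9806 and 10629 with PIC. With LPS+TBHQ it measured 8843, 8525 and 8832 CPM and under PIC+TBHQ 9026, 9097 and 9195. The PIC libraries lay above all others, the TBHQ libraries below the controls, and LPS and PIC+TBHQ overlapped the controls. mt-Co1 rose with PIC (log2 fold change 0.17, SE 0.046, FDR = 2.60e-05), although scaling by total library size turned this value to -0.05, and fell with TBHQ (log2 fold change -0.14, SE 0.033, FDR = 9.78e-04). It was lower under PIC+TBHQ than with PIC (log2 fold change -0.16, SE 0.035, FDR = 1.10e-04) and higher with PIC than with LPS (log2 fold change 0.22, SE 0.058, FDR = 1.94e-06). With LPS its log2 fold change was -0.048, not called, beside -0.53 for mt-Nd1 and -0.35 for mt-Cytb in the same libraries.

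**Figure D3:**
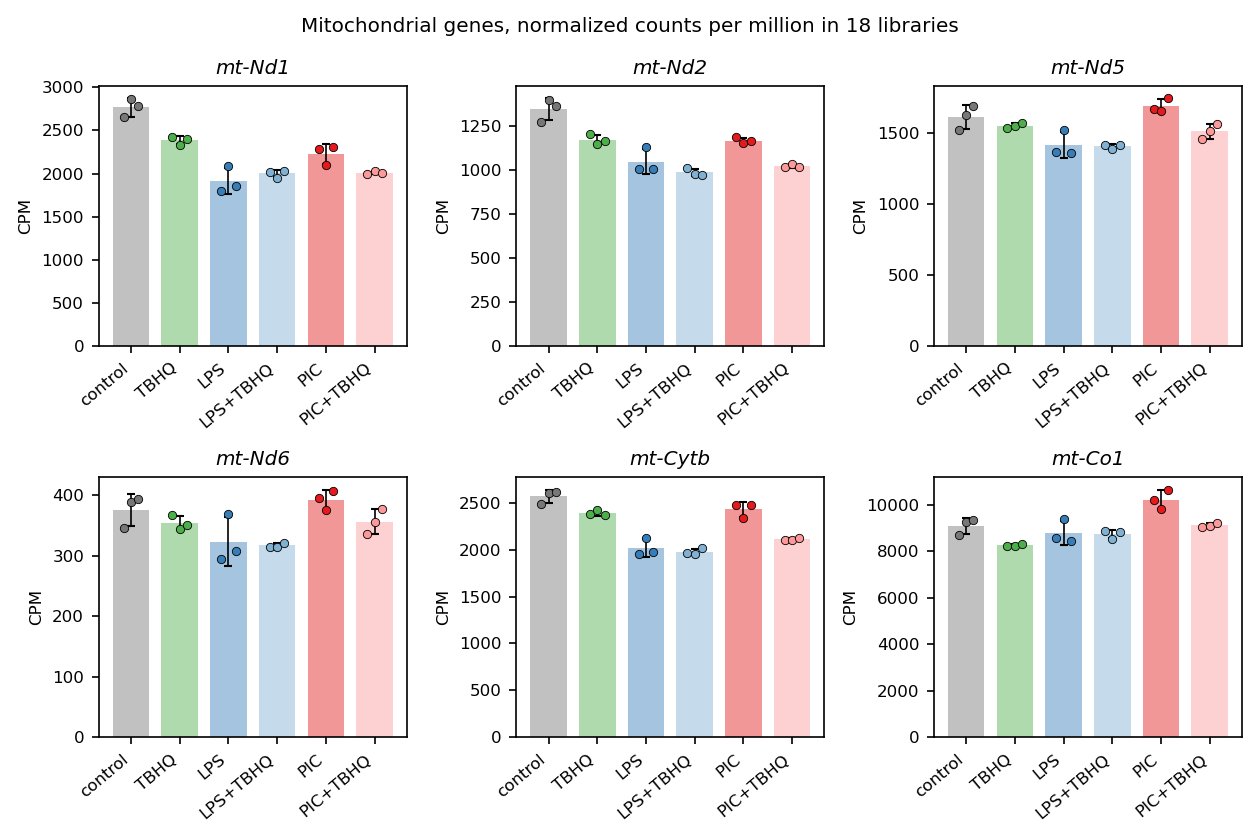
CPM of 6 mitochondrial genes in the 18 libraries, with a bar at the group mean, an error bar of 1 SD (n = 3) and a point per library. mt-Nd1 lies below the controls in every treated library (2652, 2860.5 and 2789 CPM in control), while mt-Co1 is highest with PIC (10182, 9806 and 10629 CPM).

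The 7 tested mitochondrial genes that share at most 90% of their sequence moved together in the comparisons of PIC, which share the PIC libraries. All 7 were higher with PIC than with LPS, from 0.16 to 0.28, beside 14.9% of all genes tested. All 7 were lower under PIC+TBHQ than with PIC, from -0.20 to -0.14, beside 15.5% of all genes tested. With total library size 4 and 5 mitochondrial genes were called, and the 7 kept their directions. That scaling moved the median of all genes to -0.14 and 0.078, and the share of all genes called with it is not given. LPS+TBHQ against LPS gave them -0.090 to 0.065, and the only mitochondrial gene called there was mt-Co3 (-0.30), which shares 99.9%. LPS lowered 6 of the 7 relative to control, and PIC lowered 3 (mt-Nd1, mt-Nd2 and mt-Cytb) and raised mt-Co1. Of all genes tested, LPS lowered 24.1%, and PIC lowered 30.1% and raised 28.6%. The test of the difference between the TBHQ effects called mt-Nd1 (log2 fold change -0.21, SE 0.080, FDR = 0.0302) and mt-Cytb (log2 fold change -0.17, SE 0.049, FDR = 0.0258), and the other 5 ranged from -0.16 to -0.079. It called 1.01% of all genes tested lower and 0.825% higher. mt-Nd1 lost its call in the difference of the TBHQ effects with scaling by total library size (FDR = 0.0977) and with limma (FDR = 0.140), and without LPS replicate 1 or 3, LPS+TBHQ replicate 1 or 3, PIC replicate 1 or 3, PIC+TBHQ replicate 1 or 3 (FDR 0.0522 to 0.105). mt-Cytb lost its call in the difference of the TBHQ effects with scaling by total library size (FDR = 0.105) and with limma (FDR = 0.0883), and without LPS replicate 1, LPS+TBHQ replicate 3, PIC+TBHQ replicate 1 (FDR 0.0571 to 0.0791). mt-Nd6 lost its call in PIC+TBHQ against PIC with DESeq2 (FDR = 0.124) and with scaling by total library size (FDR = 0.349) and with limma (FDR = 0.125), and without control replicate 2, TBHQ replicate 2 or 3, LPS+TBHQ replicate 1 or 2 or 3, PIC replicate 1 or 3, PIC+TBHQ replicate 1 or 2 (FDR 0.0502 to 0.225). mt-Co3 lost its call in LPS+TBHQ against LPS with DESeq2 (FDR = 0.164) and with limma (FDR = 0.149), and without LPS replicate 1 or 3, LPS+TBHQ replicate 1 or 2 (FDR 0.0541 to 0.349). The value for mt-Co3 in LPS+TBHQ against LPS was -0.16 without LPS replicate 1 and -0.17 without LPS+TBHQ replicate 2 and -0.45 without LPS+TBHQ replicate 3. Without LPS replicate 2, whose mitochondrial share was the highest of its group, 6 mitochondrial genes were called in the difference of the TBHQ effects.

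The 5 genes with nearly identical copies are given apart from the others. mt-Nd4l, a small subunit of complex I, had 55, 80 and 83 counts in control and 119, 198 and 281 with TBHQ, or 3.57, 4.89 and 4.89 and 6.95, 12.1 and 16.3 CPM. All TBHQ libraries lay above the controls, the only rise of a mitochondrial gene with TBHQ (log2 fold change 1.40, SE 0.39, FDR = 2.23e-06). Its copy Gm10222 had 112, 147 and 245 counts in control and 114, 113 and 132 with TBHQ, and with the copy's counts added the log2 fold change was 0.35 (FDR = 0.0876). mt-Co2, the subunit of complex IV that receives electrons from cytochrome c, measured 280.3, 105 and 86.8 CPM in control and 61.9, 63.8 and 58.1 with TBHQ. It fell with TBHQ (log2 fold change -1.35, SE 0.53, FDR = 1.10e-05); with its copies added the value was -0.94, and without control replicate 1 the gene alone gave -0.65 (FDR = 6.86e-05). mt-Nd3 measured 8.90, 12.6 and 11.7 CPM in control and 5.21, 5.40 and 4.92 with LPS, without overlap. It fell with LPS (log2 fold change -1.10, SE 0.15, FDR = 6.81e-08) and by 0.71 on the log2 scale with its copy added. mt-Co3 and mt-Atp6 had log2 fold changes with LPS of -0.074 and -0.066, not called, and mt-Atp6 was lower under PIC+TBHQ than with PIC (-0.51, or -0.29 with its copy added). mt-Nd4l lost its call in TBHQ against control with its copy added (FDR = 0.0876). mt-Atp6 lost its call in PIC+TBHQ against PIC with DESeq2 (FDR = 0.129) and with limma (FDR = 0.157), and without PIC replicate 1, PIC+TBHQ replicate 3 (FDR 0.0891 to 0.229). The value for mt-Atp6 in PIC+TBHQ against PIC was -0.29 without PIC replicate 1.

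Of the 7 nuclear core subunits of complex I, LPS lowered 6 and PIC 6, with medians of -0.30 and -0.34; after TBHQ alone 0 fell and the median was -0.043. The shares of all genes tested that fell were 24.1, 30.1 and 14.8%. Ndufs8, which holds iron-sulfur clusters in the arm that faces the matrix, measured 182, 188 and 186 CPM in control, 134, 126 and 136 with LPS, 122, 129.7 and 123 with PIC and 193, 198 and 192 with TBHQ. It measured 158, 156 and 157 CPM under LPS+TBHQ and 158, 144 and 154 under PIC+TBHQ. The LPS and PIC libraries lay lowest, those with TBHQ before the stimulus between them and the controls without overlapping either. Ndufs8 fell with LPS (log2 fold change -0.49, SE 0.035, FDR = 7.91e-13) and PIC (log2 fold change -0.57, SE 0.031, FDR = 8.97e-15), and was higher under LPS+TBHQ than with LPS (log2 fold change 0.25, SE 0.032, FDR = 7.27e-06) and under PIC+TBHQ than with PIC (log2 fold change 0.28, SE 0.047, FDR = 8.60e-07). Ndufs7, which carries the last iron-sulfur cluster before ubiquinone, measured 77.9, 82.7 and 83.1 CPM in control, 57.1, 53.1 and 67.9 with LPS, 63.7, 67.1 and 70.6 under LPS+TBHQ, 56.97, 57.8 and 57.8 with PIC and 67.8, 65.7 and 69.2 under PIC+TBHQ. PIC+TBHQ lay wholly above PIC (log2 fold change 0.23, SE 0.023, FDR = 0.00493), while LPS and LPS+TBHQ overlapped (log2 fold change 0.18, SE 0.11, FDR = 0.0376). Ndufs7 lost its call in LPS+TBHQ against LPS with DESeq2 (FDR = 0.0619) and with a fit of the compared conditions alone (FDR = 0.0579) and with limma (FDR = 0.0869), and without LPS replicate 1 or 2, LPS+TBHQ replicate 2 or 3 (FDR 0.0781 to 0.300). The value for Ndufs7 in LPS+TBHQ against LPS was 0.10 without LPS replicate 2 and 0.29 without LPS replicate 3. Ndufs3 was the core subunit without a call for either stimulus, at 0.0032 and 0.053.

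Of the 30 tested accessory subunits of complex I, 16 fell with TBHQ, 18 with LPS and 18 with PIC, and 0, 1 and 2 rose (medians -0.22, -0.18 and -0.20). Over all genes tested 14.8, 24.1 and 30.1% fell and 14.2, 24.0 and 28.6% rose. Ndufv3, a subunit near the NADH site, measured 42.1, 40.05 and 38.1 CPM in control, 25.5, 28.97 and 26.8 with TBHQ, 36.6, 31.6 and 34.9 with LPS and 36.8, 34.6 and 33.7 with PIC. Its TBHQ libraries lay below all other libraries (log2 fold change -0.57, SE 0.068, FDR = 9.03e-08), and under LPS+TBHQ and PIC+TBHQ the log2 fold changes from control were -0.27 and -0.22. Ndufa1, needed for assembly of the membrane arm, measured 44.5, 41.6 and 40.8 CPM in control, 34.3, 33.9 and 34.3 with TBHQ, 47.5, 51.2 and 44.3 with PIC and 39.5, 39.6 and 38.1 under PIC+TBHQ. It fell with TBHQ (-0.31) and was lower under PIC+TBHQ than with PIC (log2 fold change -0.29, SE 0.063, FDR = 2.63e-04), as was Ndufb1 (log2 fold change -0.51, SE 0.12, FDR = 7.31e-05), a subunit of the membrane arm. PIC raised Ndufa1 by 0.17 and Ndufa7 by 0.14 on the log2 scale, values that scaling by total library size turned to -0.05 and -0.08, and LPS raised Ndufa7 by 0.14. Ndufv3 lost its call in PIC+TBHQ against control without control replicate 1 (FDR = 0.0549). Ndufa1 lost its call in PIC against control without control replicate 3, PIC replicate 2 (FDR 0.0641 to 0.0787). Ndufa7 lost its call in PIC against control with DESeq2 (FDR = 0.0566) and with no filter (FDR = 0.108), and without control replicate 1 or 2 or 3, LPS+TBHQ replicate 1 or 2, PIC replicate 1 or 2 (FDR 0.0501 to 0.148). Ndufa7 lost its call in LPS against control with DESeq2 (FDR = 0.0745) and with a fit of the compared conditions alone (FDR = 0.0512) and with scaling by total library size (FDR = 0.475) and with no filter (FDR = 0.117), and without control replicate 1 or 2 or 3, LPS replicate 1 or 3, LPS+TBHQ replicate 1 or 2 (FDR 0.0513 to 0.138).

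Ndufa12 did not follow the other accessory subunits. It measured 34.4, 43.6 and 8.18 CPM in control, 8.88, 11.5 and 33.6 with TBHQ, 40.6, 37.01 and 38.7 with LPS and 11.8, 15.9 and 6.72 under LPS+TBHQ. With PIC it measured 34.9, 11.3 and 16.4 CPM and under PIC+TBHQ 10.5, 10.9 and 8.61. Control, TBHQ and PIC each held libraries far apart, whereas the LPS libraries lay close together and above every LPS+TBHQ and PIC+TBHQ library. It was lower under LPS+TBHQ than with LPS (log2 fold change -1.76, SE 0.36, FDR = 5.18e-04), and lower under LPS+TBHQ (-1.32) and PIC+TBHQ (-1.52) than in control. Ndufa12 lost its call in LPS+TBHQ against control with DESeq2 (FDR = 0.0799) and with limma (FDR = 0.150), and without control replicate 2 (FDR = 0.0983). The value for Ndufa12 in LPS+TBHQ against control was -0.88 without control replicate 2. Ndufa12 lost its call in PIC+TBHQ against control with limma (FDR = 0.0967).

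The 8 assembly factors of complex I, which help build the complex and are absent from the finished enzyme, included 6 that fell with PIC (median -0.45) and 4 with LPS (median -0.26); of all genes tested 30.1% and 24.1% fell. Ndufaf7, a methyltransferase that modifies a core subunit, measured 13.8, 14.6 and 15.1 CPM in control, 11.5, 10.7 and 12.1 with LPS, 8.95, 8.57 and 6.38 with PIC and 10.8, 9.96 and 10.3 under PIC+TBHQ. The PIC libraries lay below all libraries of the other groups named, and PIC+TBHQ lay between PIC and control. Ndufaf7 fell with PIC (log2 fold change -0.88, SE 0.16, FDR = 3.47e-08), was lower with PIC than with LPS (log2 fold change -0.54, SE 0.16, FDR = 6.93e-04) and was higher under PIC+TBHQ than with PIC (log2 fold change 0.39, SE 0.15, FDR = 0.0114). Ndufaf4 measured 44.7, 45 and 52.7 CPM in control, 35.3, 40.6 and 39 with LPS, 28.3, 30.1 and 30.98 with PIC and 34.2, 39.3 and 36.3 under PIC+TBHQ, again lowest with PIC. It fell with PIC (log2 fold change -0.67, SE 0.086, FDR = 1.95e-10) and was higher under PIC+TBHQ than with PIC (log2 fold change 0.29, SE 0.069, FDR = 0.00163). The difference between the TBHQ effects with PIC and with LPS was 0.39 for Ndufaf7 and 0.29 for Ndufaf4, neither called. Ndufaf2, which acts late in assembly, fell with TBHQ (-0.38), LPS (-0.53) and PIC (-0.53), with 14.7, 14.6 and 15.6 CPM in control and 6.85, 9.89 and 9.66 under PIC+TBHQ. Ndufaf7 lost its call in PIC+TBHQ against PIC without PIC replicate 3 (FDR = 0.181). The value for Ndufaf7 in PIC+TBHQ against PIC was 0.23 without PIC replicate 3.

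**Figure D4:**
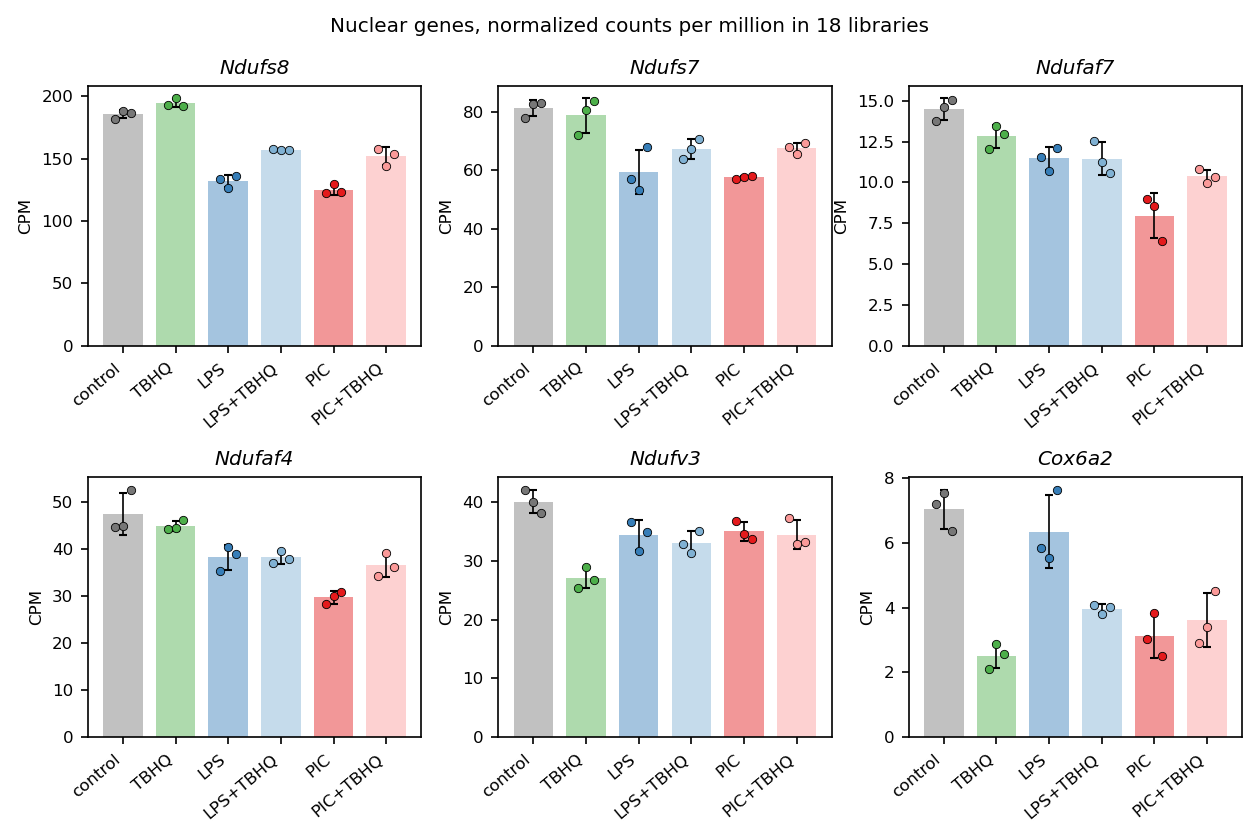
CPM of 6 nuclear genes in the 18 libraries, with a bar at the group mean, an error bar of 1 SD (n = 3) and a point per library. Ndufs8 is lowest with LPS and PIC (122, 129.7 and 123 CPM with PIC) and higher where TBHQ came first, and Ndufv3 and Cox6a2 are low with TBHQ alone.

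Of the 8 nuclear subunits of complex III, 5 fell with TBHQ, 6 with LPS and 5 with PIC (medians -0.22, -0.22 and -0.17), beside 14.8, 24.1 and 30.1% of all genes tested. Uqcrh, the hinge protein at the cytochrome c1 site, measured 138, 144 and 141 CPM in control, 112, 107 and 115 with LPS, 141, 143 and 127 with PIC and 114, 115 and 118 under PIC+TBHQ. The LPS and PIC+TBHQ libraries lay below those with PIC, which overlapped the controls. Uqcrh fell with LPS (log2 fold change -0.34, SE 0.036, FDR = 3.58e-07), was higher with PIC than with LPS (log2 fold change 0.30, SE 0.061, FDR = 1.40e-05) and lower under PIC+TBHQ than with PIC (log2 fold change -0.24, SE 0.056, FDR = 2.09e-04). Uqcrc1, a core protein of the matrix side, had log2 fold changes of -0.19 with LPS and -0.18 with PIC, and stood 0.17 higher under LPS+TBHQ than with LPS and 0.16 higher under PIC+TBHQ than with PIC. It was named after its values were seen, as were the genes named below only for being called in both comparisons. Uqcrb, with 61.04, 57.5 and 60.6 CPM with LPS and 47.8, 38.04 and 48.7 under LPS+TBHQ, was lower in the latter (log2 fold change -0.41, SE 0.12, FDR = 0.0106). Uqcrb lost its call in LPS+TBHQ against LPS with DESeq2 (FDR = 0.0829) and with limma (FDR = 0.0897), and without LPS+TBHQ replicate 2 (FDR = 0.0972).

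Of the 13 nuclear genes of complex IV other than tissue isoforms, 11 fell with TBHQ and 1 rose, 9 fell and 1 rose with LPS, and 5 fell and 1 rose with PIC (medians -0.21, -0.14 and -0.076). These compare with 14.8, 24.1 and 30.1% lower and 14.2, 24.0 and 28.6% higher among all genes tested. Cox5b-ps is among the 13, counted as lower with TBHQ and PIC and as not called with LPS. The one that rose with TBHQ, Cox5a, measured 69.8, 75.8 and 74.98 CPM in control, 84.1, 86.6 and 83.8 with TBHQ, 68.9, 64.8 and 64.7 with LPS and 75.2, 72.8 and 84.1 under LPS+TBHQ. TBHQ libraries lay above the controls (log2 fold change 0.21, SE 0.040, FDR = 0.00199), and LPS+TBHQ above LPS (log2 fold change 0.23, SE 0.070, FDR = 0.00111). Cox7a2l, which joins complexes III and IV into supercomplexes, moved the other way, at 144, 138 and 135 CPM in control, 119, 119 and 124 with TBHQ, 158, 158 and 149.96 with LPS and 158, 167 and 150.04 with PIC. The TBHQ libraries lay below the controls and the LPS and PIC libraries above them. Cox7a2l fell with TBHQ (log2 fold change -0.21, SE 0.033, FDR = 5.12e-04) and rose with LPS (log2 fold change 0.16, SE 0.037, FDR = 0.00344) and PIC (log2 fold change 0.19, SE 0.053, FDR = 4.82e-04), the last of which scaling by total library size turned to -0.03. It was lower under LPS+TBHQ than with LPS (-0.18) and under PIC+TBHQ than with PIC (-0.19). Cox7a2l lost its call in LPS against control with scaling by total library size (FDR = 0.184). Cox6b1, on the outer side near the cytochrome c site, was lower under PIC+TBHQ than with PIC (log2 fold change -0.26, SE 0.077, FDR = 1.06e-04).

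Complex IV has subunits in more than 1 form, and these cells carried the general forms. In control cells Cox4i1, Cox6a1, Cox6b1, Cox7a2 and Cox8a stood at 293, 381, 239, 122 and 292 FPKM, whereas their counterparts Cox4i2, Cox6a2, Cox6b2, Cox7a1 and Cox8b stood at 0.161, 10.4, 0.0178, 4.62 and 0 FPKM. Cox6a2, the form of heart and skeletal muscle, was low but measurable, with 111, 123 and 108 counts in control, 36, 47 and 44 with TBHQ, 84, 80 and 110 with LPS and 42, 54 and 43 with PIC. It had 69, 64 and 71 counts under LPS+TBHQ and 45, 49 and 73 under PIC+TBHQ. LPS overlapped the controls in CPM, and every other treated group lay below them. Cox6a2 fell with TBHQ (log2 fold change -1.48, SE 0.14, FDR = 1.19e-07) and with PIC (log2 fold change -1.18, SE 0.19, FDR = 1.19e-06), was lower with PIC than with LPS (log2 fold change -1.03, SE 0.22, FDR = 6.25e-05) and lower under LPS+TBHQ than with LPS (log2 fold change -0.67, SE 0.14, FDR = 0.00487); its general form Cox6a1 fell by 0.22 with TBHQ. Cox6a2 lost its call in LPS+TBHQ against LPS without LPS replicate 3 (FDR = 0.0538). Cox4i1 measured 448, 467 and 443 CPM in control and 361, 389 and 376 with TBHQ, a fall without overlap (log2 fold change -0.27, SE 0.039, FDR = 3.87e-07).

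Ndufa4, a subunit of complex IV despite its name, stood at 86.9 FPKM in control and its paralog Ndufa4l2 at 0.0565 FPKM; Ndufa4 fell with TBHQ (-0.21) and LPS (-0.16). Ndufa4 lost its call in LPS against control with limma (FDR = 0.0640), and without control replicate 2 or 3, LPS replicate 1 (FDR 0.0655 to 0.188). The value for Ndufa4 in LPS against control was -0.093 without LPS replicate 1. Another paralog, AA467197, also known as Nmes1, lies outside the rule and did not pass the filter. It had 0, 0 and 1 counts in control, 0, 1 and 2 with TBHQ, 7, 6 and 6 with LPS, 0, 0 and 1 under LPS+TBHQ, 6, 5 and 11 with PIC and 2, 1 and 3 under PIC+TBHQ. The LPS and PIC libraries, with 5 to 11 counts, lay above the floor of 3 and all others at or below it.

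Of the 17 tested nuclear genes of complex V, 8 fell with TBHQ and 2 rose, 12 fell with LPS and 10 with PIC (medians -0.14, -0.24 and -0.18), beside 14.8, 24.1 and 30.1% of all genes tested that fell and 14.2% that rose with TBHQ. Atp5o, the stalk subunit that holds the catalytic head still, measured 84.5, 81.4 and 80.3 CPM in control, 90.9, 97.2 and 95.9 with TBHQ, 70.8, 60.3 and 70.5 with LPS and 63.6, 70.01 and 72.2 with PIC. TBHQ libraries lay above the controls and stimulated libraries below them. Atp5o rose with TBHQ (log2 fold change 0.21, SE 0.037, FDR = 0.00339) and fell with LPS (log2 fold change -0.29, SE 0.079, FDR = 5.30e-05) and PIC (log2 fold change -0.26, SE 0.059, FDR = 1.66e-04). Atp5a1, the alpha subunit of the head, moved likewise by less: it measured 921, 921 and 912 CPM in control, 975, 996 and 993 with TBHQ and 790.3, 763 and 806 with LPS, with log2 fold changes of 0.11 and -0.22. Atp5d, the delta subunit of the rotor, measured 153, 148 and 138 CPM in control and 186, 159.7 and 172 under PIC+TBHQ, the only nuclear gene of the chain raised by PIC+TBHQ (log2 fold change 0.24, SE 0.076, FDR = 1.37e-04); with total library size none was. Atp5k, a membrane subunit of the dimer interface, measured 36.7, 28.5 and 30.1 CPM in control and 24.6, 24.04 and 21.3 with TBHQ, and fell (log2 fold change -0.45, SE 0.13, FDR = 0.00104). Atp5d lost its call in PIC+TBHQ against control with scaling by total library size (FDR = 0.122).

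Subunit c, which forms the rotor ring, is encoded by Atp5g1, Atp5g2 and Atp5g3 as identical mature proteins with different leader sequences. In control cells they stood at 15.8, 90.6 and 111 FPKM. Atp5g3 measured 243, 242 and 241 CPM in control, 194, 195 and 195 with LPS and 213, 219 and 216 with PIC, in 3 ranges without overlap. It fell with LPS (log2 fold change -0.31, SE 0.0052, FDR = 1.07e-09), and Atp5g1 (-0.43) and Atp5g2 (-0.27) fell too. Atp5g1 was higher with PIC than with LPS (log2 fold change 0.24, SE 0.15, FDR = 0.0344), at 50.5, 51.7 and 68.9 CPM with LPS and 64.5, 70.01 and 67.9 with PIC, which overlapped. Atp5l, a membrane subunit of ATP synthase, measured 98.2, 103 and 95.9 CPM with LPS and 106, 111 and 114 with PIC, without overlap, and was higher with PIC (log2 fold change 0.16, SE 0.040, FDR = 0.00584). With TBHQ, Atp5g2 fell (-0.20), and Atp5g3 gave 0.051 without a call. The inhibitor of ATP synthase, named Atp5if1 in the fixed list, appears in the deposited table under its older symbol Atpif1, outside the rule; Atpif1 fell with TBHQ (log2 fold change -0.19, FDR = 0.0165), LPS (log2 fold change -0.45, FDR = 2.74e-07) and PIC (log2 fold change -0.49, FDR = 2.44e-08). Atp5g1 lost its call in PIC against LPS with DESeq2 (FDR = 0.126) and with scaling by total library size (FDR = 0.313) and with limma (FDR = 0.1), and without LPS replicate 1 or 2, PIC replicate 2 or 3 (FDR 0.0703 to 0.225). The value for Atp5g1 in PIC against LPS was 0.41 without LPS replicate 3. Atp5l lost its call in PIC against LPS with scaling by total library size (FDR = 0.610).

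LPS+TBHQ against LPS and PIC+TBHQ against PIC have no library in common. Of the 8 nuclear genes higher in each, 5 were the same, or 62.5% of both lists: Uqcrc1, Ndufs8, Atp5d, Atp5o and Ndufs7. Of the 21 and 13 lower, 8 were the same, or 38.1% and 61.5%: Cox6b1, Cox7a2l, Cox6c, Cox7c, Atp5md, Ndufa1, Ndufa3 and Ndufb1. Over all genes tested, 68.8% of those higher under LPS+TBHQ and 50.8% of those higher under PIC+TBHQ were shared, and 72.2% and 57.0% of those lower. The log2 fold changes of Atp5o were 0.18 and 0.15, and those of Cox7c, a small subunit of complex IV, -0.37 and -0.16. Atp5o lost its call in LPS+TBHQ against LPS with limma (FDR = 0.0558), and without LPS replicate 2, LPS+TBHQ replicate 1 or 3 (FDR 0.0697 to 0.220). The value for Atp5o in LPS+TBHQ against LPS was 0.10 without LPS replicate 2. Atp5o lost its call in PIC+TBHQ against PIC with DESeq2 (FDR = 0.0780) and with RLE size factors (FDR = 0.0592) and with a mean of at least 50 counts (FDR = 0.0531) and with limma (FDR = 0.0928), and without LPS replicate 3, PIC replicate 1 or 2, PIC+TBHQ replicate 1 or 2 or 3 (FDR 0.0530 to 0.311). The value for Atp5o in PIC+TBHQ against PIC was 0.089 without PIC replicate 1. Atp5d lost its call in LPS+TBHQ against LPS with limma (FDR = 0.0724), and without LPS replicate 1 or 2, LPS+TBHQ replicate 2 (FDR 0.0816 to 0.137). Atp5d lost its call in PIC+TBHQ against PIC without PIC replicate 1, PIC+TBHQ replicate 1 (FDR 0.0537 to 0.0549).

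The other genes of the pathway were taken from fixed lists outside the symbol rule. Complex II, succinate dehydrogenase, has only nuclear subunits, and LPS and PIC each lowered 5 of its 8 listed genes (medians -0.26 and -0.20), and TBHQ lowered 2, beside 24.1, 30.1 and 14.8% of all genes tested. Sdhd, which anchors the complex in the membrane, measured 156, 164 and 147 CPM in control, 116, 119 and 119.8 with LPS and 125, 120.3 and 121 with PIC, without overlap with control (log2 fold change -0.40, SE 0.046, FDR = 2.70e-10 with LPS). Sdha, Sdhb and Sdhc fell with LPS by 0.27, 0.24 and 0.19, and with TBHQ alone gave -0.0032, -0.065 and -0.087 without a call. The 2 that fell with TBHQ were assembly factors of complex II, Sdhaf3 (log2 fold change -0.60, SE 0.18, FDR = 0.00965) and Sdhaf4 (log2 fold change -0.37, SE 0.14, FDR = 0.0346, named after its value was seen and not tested by leaving out libraries), and Sdhaf3 also fell under LPS+TBHQ relative to control (log2 fold change -0.70, SE 0.16, FDR = 0.00163). Cycs, cytochrome c itself, measured 213, 213 and 201 CPM in control, 174, 186 and 182 with TBHQ, 214, 227 and 228 with LPS and 236, 237 and 231 with PIC; TBHQ lay below and the stimuli above the controls. Cycs rose with PIC (log2 fold change 0.17, SE 0.031, FDR = 2.65e-04), which scaling by total library size turned to -0.05, and fell with TBHQ (log2 fold change -0.21, SE 0.041, FDR = 4.70e-05), while Cyc1, the heme subunit of complex III, fell with LPS (-0.35) and PIC (-0.36). Sdhaf3 lost its call in TBHQ against control without TBHQ replicate 3 (FDR = 0.0819).

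Of the 38 tested assembly factors with other names, 8 fell and 1 rose with TBHQ, 13 and 4 with LPS and 21 and 4 with PIC (medians -0.086, -0.12 and -0.24). Lower were 14.8, 24.1 and 30.1% and higher 14.2, 24.0 and 28.6% of all genes tested. Pet100, a chaperone of complex IV, measured 11.2, 10.5 and 10.3 CPM in control and 7.24, 5.54 and 6.75 with TBHQ, and fell (log2 fold change -0.71, SE 0.12, FDR = 0.00201). Nubpl, which delivers iron-sulfur clusters to complex I, fell with TBHQ (log2 fold change -0.61, SE 0.23, FDR = 0.00491), from 6.95, 7.95 and 7.12 to 4.96, 3.47 and 5.99 CPM. Cmc2, an assembly protein of complex IV, measured 22.5, 18.9 and 20.1 CPM in control, 13.9, 12.5 and 13.9 with LPS, 17.2, 17.7 and 16.4 under LPS+TBHQ, 12.3, 12.9 and 12.9 with PIC and 12.3, 11.6 and 13.3 under PIC+TBHQ. LPS+TBHQ lay above LPS (log2 fold change 0.35, SE 0.060, FDR = 0.00644), while PIC+TBHQ overlapped PIC (-0.034, not called); the difference of these effects, -0.38, was not called either. Ttc19, which acts on assembled complex III, rose with LPS (0.39) and PIC (0.66) and was higher with PIC than with LPS (0.27), whereas Taco1, a translational activator of mt-Co1, was lower with PIC than with LPS (-0.35). Cox11, which helps place copper in mt-Co1, was higher under PIC+TBHQ than with PIC (log2 fold change 0.44, SE 0.13, FDR = 0.0157), from 6.72, 8.01 and 8.64 to 11.8, 9.82 and 10.3 CPM. Nubpl lost its call in TBHQ against control without TBHQ replicate 2 (FDR = 0.0633). Ttc19 lost its call in PIC against LPS with scaling by total library size (FDR = 0.172), and without LPS replicate 3 (FDR = 0.104). Taco1 lost its call in PIC against LPS without LPS replicate 3, PIC replicate 2 (FDR 0.107 to 0.116). Cox11 lost its call in PIC+TBHQ against PIC without PIC replicate 1, PIC+TBHQ replicate 1 (FDR 0.0945 to 0.113).

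Of the 11 listed genes of mitochondrial DNA maintenance and transcription, 7 fell and 1 rose with LPS, and 7 fell and 0 rose with PIC (medians -0.26 and -0.28), while TBHQ lowered 1 and raised 2. Among all genes tested LPS lowered 24.1%, PIC 30.1% and TBHQ 14.8%, and they raised 24.0, 28.6 and 14.2%. Tfam, which packages mitochondrial DNA and starts its transcription, measured 54.3, 55.9 and 52.3 CPM in control, 44.1, 46.4 and 45.02 with LPS and 42.5, 37.8 and 38.8 with PIC. Both stimuli lay below the controls (log2 fold change -0.26, SE 0.035, FDR = 2.24e-04 with LPS, log2 fold change -0.45, SE 0.057, FDR = 2.26e-08 with PIC). Mgme1, a nuclease of mitochondrial DNA, measured 19.4, 21.7 and 21.9 CPM in control, 12.3, 13.4 and 15.2 with LPS and 12.6, 12.5 and 11.7 with PIC, and fell in both (-0.63 and -0.78). Polrmt, the mitochondrial RNA polymerase, measured 34.2, 32.04 and 31.5 CPM in control and 36.4, 38.8 and 39.6 with TBHQ, a rise (log2 fold change 0.23, SE 0.051, FDR = 0.0131). It fell with PIC (log2 fold change -0.30, SE 0.091, FDR = 8.66e-04) and was higher under PIC+TBHQ than with PIC (0.26). Polrmt lost its call in TBHQ against control without control replicate 2 or 3, TBHQ replicate 3 (FDR 0.0501 to 0.0621). Polrmt lost its call in PIC+TBHQ against PIC without PIC replicate 1, PIC+TBHQ replicate 2 (FDR 0.0570 to 0.115). The value for Polrmt in PIC+TBHQ against PIC was 0.17 without PIC replicate 1.

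Of the 17 genes of mitochondrial RNA processing and decay, 6 fell and 1 rose with LPS, 8 and 1 with PIC and 3 and 2 with TBHQ (medians -0.085, -0.10 and -0.032). Of all genes tested, 24.1, 30.1 and 14.8% fell and 24.0, 28.6 and 14.2% rose. Lrpprc, which stabilizes and helps polyadenylate mitochondrial mRNAs, measured 159, 161 and 166 CPM in control, 132, 138 and 129 with LPS, 121, 119 and 114 with PIC and 138, 131 and 139 under PIC+TBHQ. Of these groups it was lowest with PIC (log2 fold change -0.46, SE 0.033, FDR = 1.79e-12), and it was higher under PIC+TBHQ than with PIC (log2 fold change 0.21, SE 0.037, FDR = 1.06e-04), where mt-Nd1 and mt-Cytb were lower. Pnpt1, a mitochondrial ribonuclease, was lower under LPS+TBHQ than with LPS (log2 fold change -0.23, SE 0.024, FDR = 3.31e-04) and under PIC+TBHQ than with PIC (log2 fold change -0.22, SE 0.059, FDR = 2.65e-04), and gave -0.036 and 0.0072 for the stimuli against control without a call. Fastkd1 and Fastkd5, which bind mitochondrial RNAs, were higher under LPS+TBHQ than with LPS (0.41 and 0.43). Fastkd5 lost its call in LPS+TBHQ against LPS without LPS replicate 3, LPS+TBHQ replicate 3 (FDR 0.0722 to 0.111).

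Of the 11 listed nuclear regulators, 9 were tested, and LPS lowered 6 and PIC lowered 5 (medians -0.19 and -0.21), and TBHQ raised 2, beside 24.1% and 30.1% of all genes tested lowered and 14.2% raised. Nrf1, nuclear respiratory factor 1, a transcription factor of respiratory genes and distinct from the Nrf2 that TBHQ activates, measured 36.8, 36.6 and 35.7 CPM in control, 23.5, 25.4 and 23.5 with LPS and 29.4, 29.1 and 26.98 with PIC. It fell with LPS (log2 fold change -0.59, SE 0.040, FDR = 2.27e-08) and PIC (log2 fold change -0.35, SE 0.041, FDR = 6.97e-05), as its LPS+TBHQ and PIC+TBHQ libraries did relative to control (-0.50 and -0.54). Gabpa, another such factor, fell with LPS (-0.19) and gave -0.056 with PIC without a call. Ppargc1b, a coactivator of these factors, measured 15.99, 18.5 and 17.6 CPM with LPS, 24.7, 21.5 and 22.7 under LPS+TBHQ, 15.1, 16.1 and 15.7 with PIC and 22.5, 23.9 and 26.8 under PIC+TBHQ. With TBHQ first it was higher without overlap for LPS (log2 fold change 0.40, SE 0.085, FDR = 6.48e-04) and PIC (log2 fold change 0.64, SE 0.079, FDR = 5.11e-07). Its partner Esrra was higher under PIC+TBHQ than with PIC (log2 fold change 0.35, SE 0.032, FDR = 1.46e-06), and the related coactivator Ppargc1a had 0 to 3 counts in any library. Gabpa lost its call in LPS against control without LPS replicate 1 (FDR = 0.0805).

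Promoter windows of 300 bases, from 250 before to 50 after the start, were found for 74 of the 93 nuclear genes among 27025 genes in RefSeq on GRCm38.p6. The letters CGCATGCG, the core of the NRF-1 site bound by the protein of Nrf1, lay on either strand in windows of 14.9% of these genes against 2.07% of all genes; CCGGAAG, an ETS core as bound by Gabpa, in 23.0% against 9.93%; and AAGATGGC, a YY1 core, in 14.9% against 3.19%. TGACNNNGC, the core of the antioxidant response element bound by Nrf2, lay in 14.9% against 14%. A match describes letters and is not evidence of binding. Ndufaf4 and Ndufaf7, which both fell with PIC and were higher under PIC+TBHQ, differ in these letters: the 250 bases before the start of Ndufaf4 hold both TGACNNNGC and the NRF-1 core, in capitals, and those of Ndufaf7 hold none of the 4 motifs. The sequences run 5′ to 3′ on the strand of the gene, the forward strand for both, at chr4:24897833-24898082 and chr17:78936885-78937134 of GRCm38.p6.
Ndufaf4: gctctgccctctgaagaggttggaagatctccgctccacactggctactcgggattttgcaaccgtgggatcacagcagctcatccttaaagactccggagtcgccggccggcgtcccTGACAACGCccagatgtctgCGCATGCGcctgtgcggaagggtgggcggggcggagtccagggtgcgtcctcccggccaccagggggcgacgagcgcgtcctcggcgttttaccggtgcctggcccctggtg
Ndufaf7: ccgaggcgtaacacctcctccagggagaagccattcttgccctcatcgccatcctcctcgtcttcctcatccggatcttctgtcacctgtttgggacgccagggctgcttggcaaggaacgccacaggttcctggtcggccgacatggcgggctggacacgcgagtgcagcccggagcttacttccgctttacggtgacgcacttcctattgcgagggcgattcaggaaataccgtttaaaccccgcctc

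Gene length and GC content of the nuclear genes went with their fold changes in some comparisons. Across the 85 tested nuclear genes, Spearman's correlation of the authors' gene length with the log2 fold change was 0.373 for TBHQ against control and 0.362 for LPS+TBHQ against LPS, beside 0.124 and 0.0489 across all 13691 genes tested. For the difference of the TBHQ effects it was -0.361, beside -0.0957 for all genes, and the other comparisons ran from -0.0494 (LPS against control) to 0.296 (LPS+TBHQ against control). For GC content of the transcripts it was 0.326 in PIC+TBHQ against PIC over 84 genes, beside 0.341 over 11227 genes. The genes share their libraries and are not independent replicates, and the part of length or GC content in the results was not tested. After TBHQ, nuclear genes under 1000 bases had a median log2 fold change of -0.21 and longer ones of -0.17, beside -0.075 and 0.0037 over all genes.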

How the data were processed

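RNA of 18 libraries, 3 for each of the 6 groups, was analysed from the tables the authors deposited: whole-number counts of 56748 genes with a gene length in bases (a column of other unit), and FPKM. By the submitters' processing notes, reads were aligned with HISAT2 2.0.5, assembled with StringTie 1.3.3b and counted with featureCounts 1.5.0-p3. The labels name both GRCm38 and mm39. Gene positions are those of the authors' table, where 3 of 93 nuclear genes have the start and end they have on GRCm38 (GENCODE vM21); promoter positions are on GRCm38.p6. The strand setting of the counting and the handling of reads that match several places are not given. Transcript sequences came from GENCODE vM21 on GRCm38 and promoters from RefSeq on GRCm38.p6.

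Counts were filtered with filterByExpr (13691 genes kept), scaled by TMM and tested with edgeR 4.0.16 (quasi-likelihood, all 18 libraries in the fit, R 4.3.3), with FDR over all genes tested and a threshold of 0.05; log2 CPM used a prior count of 2. SEs are those of the difference of group means of log2 CPM. The code was tested on simulated data. Alternatives were DESeq2 1.42.0, edgeR on the compared groups only, RLE factors, total library size, no filter, a mean of at least 50 counts, the replicate number as a block, the study's threshold (FDR under 0.01 and a log2 fold change beyond 2), limma 3.58.1 on log2(FPKM + 1) for genes with a mean of at least 1 FPKM, and leaving out each library. Shared sequence was the percentage of 50-base words of a gene's transcripts found in another gene (Python 3.11.15). Figures used matplotlib 3.10.9.

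The genes and lists were chosen with earlier results of these data known. Genes named were all mitochondrial genes; in each comparison the 3 nuclear genes with the highest and the 3 with the lowest called log2 fold change at a mean of at least 50 counts; fixed isoform sets; 15 genes of the other lists; and in each comparison the 2 genes of those lists with the largest called change. The lists were complex II, cytochrome c and c1, assembly factors of other names, mitochondrial DNA and transcription, mitochondrial RNA processing and decay, nuclear regulators, and markers of macrophages, T cells, fibroblasts and epithelial cells. The listed symbol Fastkd4 is not in the files. The labels do not say whether libraries with the same replicate number belong together, so the groups were compared unpaired.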

Additional observations from a re-analysis of the deposited data

Results flagged for a closer look

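The effect of TBHQ given before PIC differed from its effect before LPS, by a test of the difference itself, for 2 respiratory chain genes: mt-Nd1 (log2 difference -0.21, FDR = 0.0302) and mt-Cytb (-0.17, FDR = 0.0258). Of all genes tested, 1.01% were called lower and 0.825% higher by this test. All 3 PIC+TBHQ libraries lay below all 3 PIC libraries in mt-Cytb. mt-Nd1 lost its call in the difference of the TBHQ effects with scaling by total library size (FDR = 0.0977) and with limma (FDR = 0.140), and without LPS replicate 1 or 3, LPS+TBHQ replicate 1 or 3, PIC replicate 1 or 3, PIC+TBHQ replicate 1 or 3 (FDR 0.0522 to 0.105). mt-Cytb lost its call in the difference of the TBHQ effects with scaling by total library size (FDR = 0.105) and with limma (FDR = 0.0883), and without LPS replicate 1, LPS+TBHQ replicate 3, PIC+TBHQ replicate 1 (FDR 0.0571 to 0.0791). The cause was not tested.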

How the results depend on the processing

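Of 302 called pairs of a named gene and a comparison, 195 kept their call in all alternatives other than the study's threshold. The number that lost it was 29 with DESeq2, 34 with limma, 28 with total library size (besides 5 that it turned, also without a call), 12 without the filter, 7 with the compared groups only, 4 with RLE and 4 with the higher minimum; leaving out 1 library lost a call in 281 cases. Total library size turned PIC against control to -0.050 for mt-Co1, -0.032 for Cox7a2l, -0.082 for Ndufa7, -0.046 for Ndufa1 and -0.050 for Cycs, since it takes the median of all genes in that comparison to -0.23.

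At the study's threshold 0 mitochondrial and 0 nuclear genes passed in every comparison with edgeR, as its minimum of 2 on the log2 scale lies beyond the log2 fold changes of these genes. Counts at an FDR under 0.05 are in the report. Counts at an unadjusted p are given only where the mitochondrial or nuclear count was 0. For mitochondrial genes in LPS+TBHQ against LPS the count of 1 became 0 with DESeq2, 2 without the filter and 0 with limma, and 0 to 2 on leaving out 1 library; the nuclear count of 29 became 19 to 30. Total library size gave 5 mitochondrial genes in PIC+TBHQ against PIC, and 4 mitochondrial and 32 nuclear genes (1 higher and 31 lower) in PIC against LPS. It took the median of all genes in these comparisons to 0.078 and -0.14. The share of all genes called with it is not given, so these counts are not set against it. For the difference of the TBHQ effects, the 2 mitochondrial genes became 4 with DESeq2, 0 with total library size, 5 without the filter, 0 with limma and 0 to 6 on leaving out 1 library; the 0 nuclear genes became 1 with total library size, 1 without the filter and 0 to 1 on leaving out 1 library. The cause was not tested.

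The log2 ratio of mitochondrial to nuclear sums depended on the genes summed. With the median over genes of log2 CPM in place of the sum, the difference from control was -0.0042 with TBHQ, 0.061 with LPS, 0.27 with PIC, which then lay apart from the controls, and 0.091 under PIC+TBHQ, and LPS+TBHQ minus LPS was -0.11. Without mt-Co1 the difference was -0.19 with LPS, 0.0083 with PIC, -0.16 under LPS+TBHQ and -0.15 under PIC+TBHQ, and all but that of PIC then lay apart from the controls. With only mitochondrial genes that share at most 10% of their sequence, an alternative chosen after seeing the data like that of adding the copies, these were -0.20, -0.0038, -0.17 and -0.16, again all but that of PIC apart from the controls. The cause was not tested. PIC+TBHQ minus PIC kept its direction in all of these, though the libraries overlapped with the median over genes, and ran from -0.20 to -0.11 on leaving out 1 library. PIC minus LPS stayed positive in all of these, with overlap, and ran from 0.14 to 0.25 on leaving out 1 library. Likewise the difference from control ran from -0.092 to -0.030 with TBHQ, -0.094 to 0.0089 with LPS and 0.11 to 0.20 with PIC. LPS+TBHQ minus LPS ran from -0.015 to 0.088.

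With the replicate number as a block, the 302 named pairs kept their calls, and the nuclear count for TBHQ against control was 47; the correlation of deviations between libraries with the same number ran from -0.0444 to 0.0645 over 45 pairs (median 0.00225) and between others from -0.0518 to 0.051 over 90 pairs. Depth limits genes near 3 counts, mt-Atp8 among them.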
